A study of Mus musculus with 9 samples.

Results

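Tcf7, which encodes the transcription factor TCF-1, and 8 further genes of the stem-like or memory state of T cells were followed through bulk RNA-seq of tumor-specific CD8+ T cells. The members were Tcf7, Lef1, Tcf7l2, Il7r, Ccr7, Slamf6, Bach2, Id3 and Klf2, a list given by gene name, and all 9 were present among the 32976 genes of the count tables. The cells were CD8+ tumor-infiltrating lymphocytes (TILs) sorted with a tetramer of GSW11, a tumor peptide, from CT26.WT tumors. CT26 is a colon carcinoma line of BALB/c mice, and the genotype of the samples was wildtype. All groups had received a PD-1 antibody (Clone RMP1-14) on days 3, 6 and 9 after implantation, and no untreated group was analysed here. The age and sex of the mice are not stated in the labels. TetHighProg cells bound the tetramer strongly (high avidity) and came from progressing tumors. TetLowProg cells bound it weakly (low avidity) and came from progressing tumors, and TetLowReg cells were low avidity cells from regressing tumors. Each group had 3 libraries, which the labels number 1, 2 and 5 (TetHighProg), 6, 7 and 8 (TetLowReg) and 9, 10 and 12 (TetLowProg), and values are given in that order throughout. By the study's text both progressing groups were sorted from 1 set of 3 progressing tumors, so TetHighProg and TetLowProg libraries can share a tumor, but the labels do not tie a library to a tumor and the tests treated the libraries as independent. Nor do the labels say which libraries came from separate mice, so the p-values measure the spread between these samples, which may be technical. In bulk RNA, fewer cells that express a gene and less of its RNA per cell cannot be told apart.

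TCF-1 and LEF-1 bind DNA through a high-mobility group domain, work with beta-catenin or with Groucho/TLE corepressors, and keep T cells in a state that can self-renew. During chronic antigen exposure, TCF-1+ SLAMF6+ cells form the stem-like or precursor exhausted pool that gives rise to terminally exhausted cells and that responds to PD-1 blockade. The IL-7 receptor sustains survival, CCR7 and the KLF2 program guide cells through lymphoid tissue, and BACH2 and ID3 restrain terminal differentiation.

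TetLowProg held the highest group means of 7 of the 9 members on the library-size scale and of 6 with TMM factors. On the latter scale Tcf7l2 was highest in TetLowReg. The share of all genes with their highest mean in TetLowProg was not counted. With library size, the median log2 fold change of all genes tested was itself 4.56 for TetLowProg against TetHighProg and 1.23 against TetLowReg. This count therefore supports nothing about the members, and Id3 was found in 1 TetLowProg library alone. Ccr7 was high in all 3 TetLowProg libraries. Ccr7 and Lef1 were higher in every TetLowProg library than in every TetHighProg library, 2 of 9 members, as were 6.67% of the 5813 genes tested. Tcf7l2, Slamf6, Bach2 and Id3 had no count in any TetHighProg library. Such zeros were common, since 60.8% of the 13373 genes found in at least 1 library were also at 0 in all 3 TetHighProg libraries, against 4 of 9 members. Tcf7 itself reached its highest level in TetHighProg replicate 5. None of these differences passed the edgeR test.

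**Figure D1:**
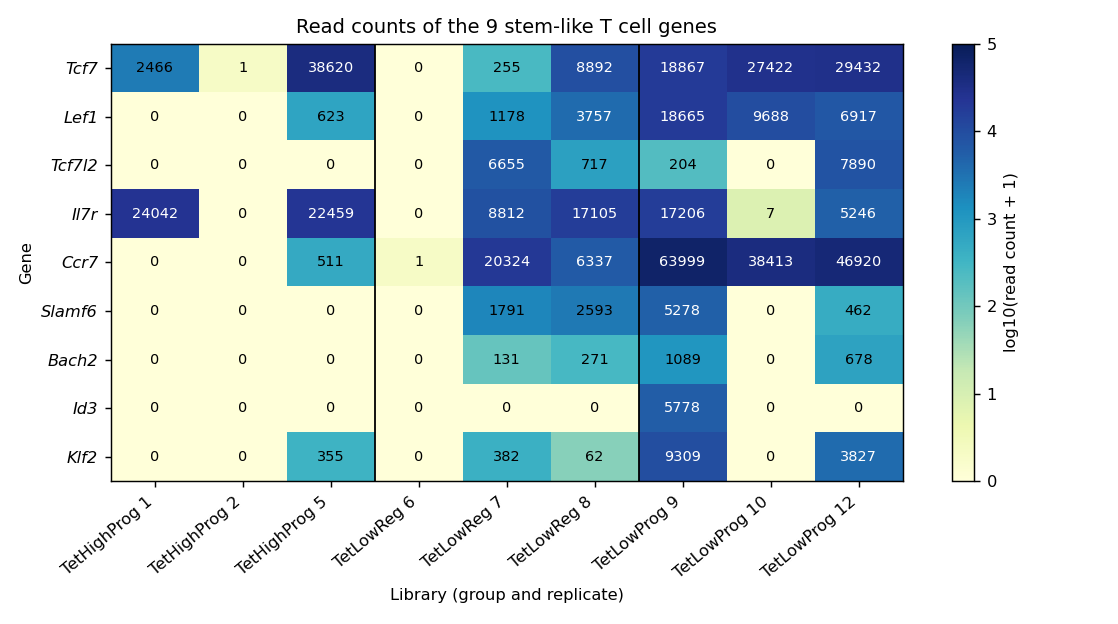
Read counts of the 9 genes (rows) in the 9 libraries (columns, grouped by black lines). The number in each cell is the count and the color is log10(count + 1). TetHighProg replicate 2 and TetLowReg replicate 6 are nearly empty, and 4 rows are at 0 in all 3 TetHighProg libraries.

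The libraries differed in how many genes they held. Between 16405306 and 36429515 reads per library fell on genes, and 599 to 8071 genes reached 10 counts, the level at which a gene is called found here. A set of 4 libraries stood apart with 599 to 1298 genes found, namely TetLowProg replicate 10, TetLowReg replicate 6 and both TetHighProg replicates 1 and 2. Mitochondrially encoded genes took 44.5% of the counts in TetLowReg replicate 7 and 14.2% in replicate 8, the 2 libraries that hold nearly all member counts of that group, and 1.36% to 6.07% elsewhere. Of 14 CD8 T cell markers, 4 to 14 were found per library, and defining ones were missing in places. Cd8a had 0 counts in TetHighProg replicates 1 and 2 and TetLowProg replicate 10, and Cd3e had 0 counts in TetLowReg replicate 6, where Cd8b1 had 8. B cell markers were found in TetLowReg replicates 7 and 8 and TetLowProg replicate 12 (10 or 11 of 11 markers in the tables) and hardly elsewhere (0 or 1 of 11).

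RefSeq promoter windows were matched for 8 of the 9 members. The 250 bases upstream of each annotated start were searched on both strands for CTTTGA (the core of TCF/LEF sites), GTAAACA (a forkhead site) and TGACTCA (bound by AP-1 and related BACH2 complexes). The members had 13 such windows. Of these 2 held CTTTGA, while 13.8% of 32851 windows of all genes did. GTAAACA was found in 3.17% and TGACTCA in 4.46% of all windows, and in 0 of the 13. The 4 windows below belong to members that the comparisons turn on, contain no exon of the GENCODE annotation, and are printed 5′ to 3′ on the gene's strand, with CTTTGA or its reverse complement in capitals. They lie in GRCm39 at chr3:130949693-130949942 (plus strand, inside the Lef1 gene before an internal start), chr4:32417185-32417434 (plus strand, inside Bach2), chr1:171744779-171745028 (plus strand, upstream of Slamf6) and chr19:55883503-55883752 (plus strand, inside Tcf7l2 before an internal start). A match is a description of the letters and says nothing of binding.
Lef1: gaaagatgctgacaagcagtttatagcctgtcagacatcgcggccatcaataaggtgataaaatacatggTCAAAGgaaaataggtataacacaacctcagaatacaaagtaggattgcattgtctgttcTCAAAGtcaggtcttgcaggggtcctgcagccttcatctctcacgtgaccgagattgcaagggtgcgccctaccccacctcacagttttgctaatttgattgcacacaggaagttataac
Bach2: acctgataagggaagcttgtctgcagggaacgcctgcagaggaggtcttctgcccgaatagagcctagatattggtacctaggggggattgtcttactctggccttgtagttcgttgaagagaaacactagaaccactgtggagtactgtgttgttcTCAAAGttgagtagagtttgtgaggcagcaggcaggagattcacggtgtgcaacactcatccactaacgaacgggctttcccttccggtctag
Slamf6: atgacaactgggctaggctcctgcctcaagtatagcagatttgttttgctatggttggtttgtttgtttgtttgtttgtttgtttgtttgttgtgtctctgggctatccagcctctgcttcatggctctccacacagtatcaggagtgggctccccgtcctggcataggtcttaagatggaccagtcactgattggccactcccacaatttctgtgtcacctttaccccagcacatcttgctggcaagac
Tcf7l2: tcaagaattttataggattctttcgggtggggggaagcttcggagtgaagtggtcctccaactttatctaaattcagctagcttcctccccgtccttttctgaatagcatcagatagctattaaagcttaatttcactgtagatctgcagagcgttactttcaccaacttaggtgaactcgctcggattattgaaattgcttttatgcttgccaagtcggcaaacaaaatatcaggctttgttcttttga

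Tcf7 lies on chromosome 11 (GRCm39, 52143107 to 52174619, minus strand). TetHighProg held 2466, 1 and 38620 counts, which is 73.8, 0.0395 and 1702 CPM (counts scaled to a common library total). TetLowReg held 0, 255 and 8892 counts (at most 542 CPM), and TetLowProg held 18867, 27422 and 29432 counts (519, 1091 and 934 CPM). All 3 TetLowProg libraries were therefore high, while each of the other groups spanned from almost none to a level in or above the TetLowProg range. The mean was lowest in TetLowReg (183 ± 311 CPM, SD, n = 3), followed by TetHighProg (592 ± 962) and TetLowProg (848 ± 295), and no neighbours in this order differed beyond their spread. In the edgeR quasi-likelihood fit the log2 fold change was -1.21 (SE 3.05, adjusted p = 0.896) for TetLowReg against TetHighProg and 0.62 (SE 3.02, adjusted p = 0.957) for TetLowProg against TetHighProg. Without TetHighProg replicate 5 the value for TetLowReg against TetHighProg turned to 2.46, and that for TetLowProg against TetHighProg was 4.28. The second stayed above 0 with any single library left out (0.050 to 4.28). Without the 4 libraries with few genes it was -1.19, with TetHighProg replicate 5 as the remaining library of its group.

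Lef1, the close relative of Tcf7 (chromosome 3, 130903919 to 131018005, plus strand), had 0, 0 and 623 counts in TetHighProg, 0, 1178 and 3757 in TetLowReg and 18665, 9688 and 6917 in TetLowProg. These were at most 27.5 CPM in TetHighProg, at most 229 CPM in TetLowReg and 514, 385 and 220 CPM in TetLowProg. Lef1 was thus higher in every TetLowProg library than in any TetHighProg library, whereas TetLowReg replicate 8 lay within the TetLowProg range on the CPM scale. Pooled over libraries, the level in TetLowProg was 49.6 times that in TetHighProg and 5.76 times that in TetLowReg. With TMM factors the group means lay closer for the low avidity groups, at 301 CPM in TetLowProg, 107 in TetLowReg and 7.55 in TetHighProg. The edgeR log2 fold change of TetLowProg against TetLowReg was 1.49 (SE 3.92). The first ratio rested on TetHighProg replicate 5, which held all TetHighProg counts of Lef1. It was at least 7426 without that library and 29.2 without TetHighProg replicate 1. The second was 18.8 without TetLowReg replicate 8 and no lower than 3.88 with any single library of these groups left out. The fitted log2 fold change was 5.30 (SE 4.60, edgeR adjusted p = 0.471) for TetLowProg against TetHighProg, and the difference did not pass the test. It ranged from 4.70 to 12.03 with single libraries left out (12.03 without TetHighProg replicate 5), and it was 3.52 without the 4 libraries with few genes and 5.55 without the 3 libraries with B cell markers.

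Tcf7l2 encodes TCF-4, a TCF family member best known from the gut epithelium, where it acts with beta-catenin (chromosome 19, 55730188 to 55922091, plus strand). It had 0 counts in all 3 TetHighProg libraries, 0, 6655 and 717 in TetLowReg (0, 183 and 43.7 CPM) and 204, 0 and 7890 in TetLowProg (5.61, 0 and 250 CPM). The groups overlapped at 0, since TetLowReg replicate 6 and TetLowProg replicate 10 had none either. Against a limit of 3 counts over the TetHighProg group, the pooled level was at least 2672-fold higher in TetLowReg and at least 2363-fold higher in TetLowProg. Most of these counts lay in a single library of each group. The limit was 506 without TetLowReg replicate 7 and 90.1 without TetLowProg replicate 12, and it was also over 1.5 times lower without TetHighProg replicate 1 (1576 and 1393). For TetLowProg it rose to 3781 without its replicate 9. edgeR gave unadjusted p-values of 0.0335 and 0.0374 and adjusted p-values of 0.233 and 0.193. The 3 libraries with the highest Tcf7l2 (TetLowReg 7 and 8, TetLowProg 12) were the 3 with B cell markers, whose summed level was 2706 to 3925 CPM there against 0.136 to 242 CPM in the other 6 libraries. The part of B cells in the Tcf7l2 counts was not tested. In TetLowProg replicate 9, where 1 of 11 B cell markers (Ighm) was found, Tcf7l2 had 204 counts.

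Per kilobase of exon, a scale on which genes can be compared, Tcf7 was the main family member in 6 of the 7 libraries that held the family. It made up 70.8%, 87.3% and 82.5% of the summed Tcf7, Lef1 and Tcf7l2 level in TetLowProg replicates 9, 10 and 12. TetHighProg replicate 1 held Tcf7 alone (100%), replicate 5 almost alone (99.3%), and TetLowReg replicate 8 at 82.8%. TetLowReg replicate 7 was the exception, with 79.4% Tcf7l2, 13.5% Lef1 and 7.10% Tcf7. Lef1 made up 7.98% to 28.8% in the TetLowProg libraries and 0.659% in TetHighProg replicate 5, so the library with the most Tcf7 had little Lef1.

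**Figure D2:**
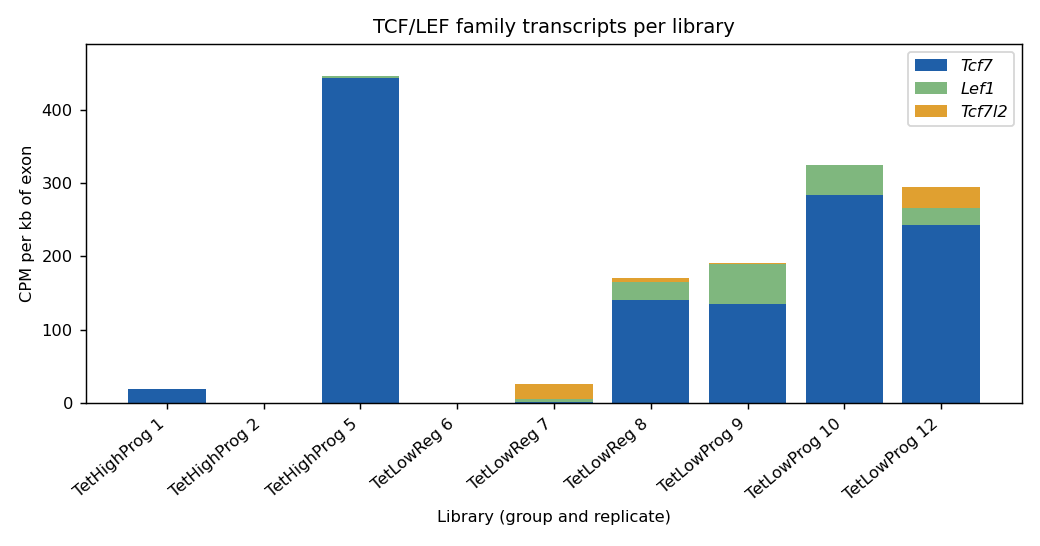
Stacked bars give the level of Tcf7, Lef1 and Tcf7l2 in CPM per kilobase of exon for each library. TetHighProg replicate 5 is almost entirely Tcf7 (99.3%), the TetLowProg bars hold Tcf7 with Lef1, and TetLowReg replicate 7 is mostly Tcf7l2 (79.4%).

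Il7r, the alpha chain of the IL-7 receptor (chromosome 15, 9505874 to 9530262, minus strand), did not follow the others. It had 24042, 0 and 22459 counts in TetHighProg, 0, 8812 and 17105 in TetLowReg and 17206, 7 and 5246 in TetLowProg. Each group had a library at or near 0, so that all groups overlapped. Of the remaining libraries, those of TetHighProg lay above those of TetLowProg (473 and 167 CPM), and those of TetLowReg (242 and 1043 CPM) spanned levels of both. On the library-size scale the means fell in the order TetHighProg (570 ± 512 CPM, n = 3), TetLowReg (428 ± 546) and TetLowProg (213 ± 240), while TetLowReg was highest with TMM factors, and no neighbours in this order differed beyond their spread. The fitted log2 fold change was 0.07 (SE 3.11, edgeR adjusted p = 0.995) for TetLowReg and -1.77 (SE 3.21, adjusted p = 0.827) for TetLowProg, each against TetHighProg. The sign of the TetLowReg value changed under several settings.

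Ccr7 encodes the chemokine receptor that leads T cells to CCL19 and CCL21 in lymph nodes (chromosome 11, 99035022 to 99045911, minus strand). It had 0, 0 and 511 counts in TetHighProg (0, 0 and 22.5 CPM), 1, 20324 and 6337 in TetLowReg (0.0454, 558 and 386 CPM) and 63999, 38413 and 46920 in TetLowProg (1761, 1528 and 1489 CPM). Every TetLowProg library lay above all 6 libraries of the other groups, also after scaling with TMM factors (lowest TetLowProg 1100 against highest TetLowReg 960.0), and the TetLowProg libraries were close to each other (1593 ± 147 CPM, n = 3). Pooled, the level in TetLowProg was 256 times that in TetHighProg and 4.51 times that in TetLowReg. All TetHighProg counts of Ccr7 were in replicate 5. Without that library the first ratio was at least 31442, and without TetHighProg replicate 1 it was 151. The second was 9.74 without TetLowReg replicate 7 and 3.18 to 4.68 with any other library of these groups left out. TetLowProg replicates 9 and 10, in which 1 and 0 of 11 B cell markers were found, had 1761 and 1528 CPM of Ccr7, beside 1489 CPM in replicate 12, in which all 11 were found. With TMM factors the values were 1100, 1470 and 1427. The part of B cells in Ccr7 was not tested. The edgeR fit gave a log2 fold change of 7.73 (SE 3.86, unadjusted p = 0.0453, adjusted p = 0.193) against TetHighProg and did not pass the test against TetLowReg either. The log2 fold change against TetHighProg ranged from 7.14 to 14.19 with single libraries left out (14.19 without TetHighProg replicate 5), and it was 6.08 without the 4 libraries with few genes and 7.71 without the 3 libraries with B cell markers.

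Klf2, the transcription factor that drives S1pr1 (chromosome 8, 73072726 to 73075502, plus strand), had 0, 0 and 355 counts in TetHighProg, 0, 382 and 62 in TetLowReg and 9309, 0 and 3827 in TetLowProg. TetLowProg replicates 9 and 12 (256 and 121 CPM) were above all other libraries, which reached at most 15.6 CPM, but replicate 10 had none. The log2 fold change for TetLowProg was 4.40 against TetHighProg (SE 4.94, edgeR adjusted p = 0.630) and 3.61 against TetLowReg (SE 4.77), and neither passed the test.

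Slamf6, the surface receptor by which stem-like exhausted cells are sorted (chromosome 1, 171745057 to 171780737, plus strand), had 0 counts in every TetHighProg library. It had 0, 1791 and 2593 counts in TetLowReg and 5278, 0 and 462 in TetLowProg. Found in the same 4 libraries as Tcf7l2, it was highest on the CPM scale in TetLowReg replicate 8 (158 CPM) and TetLowProg replicate 9 (145 CPM), and the low avidity groups overlapped. The pooled level was at least 1589-fold higher in TetLowReg and at least 1675-fold higher in TetLowProg than in TetHighProg. These limits were 831 without TetLowReg replicate 8 and 221 without TetLowProg replicate 9, and 937 and 988 without TetHighProg replicate 1. The edgeR unadjusted p was 0.0394 for TetLowReg and 0.0504 for TetLowProg, with adjusted p-values of 0.233 and 0.193. Without the 3 libraries with B cell markers the fitted log2 fold change for TetLowProg was 9.76, with TetLowProg replicate 9 as the library that held the gene.

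Bach2, a repressor of effector differentiation (chromosome 4, 32238714 to 32586108, plus strand), was at 0 in TetHighProg, at 0, 131 and 271 counts in TetLowReg and at 1089, 0 and 678 counts in TetLowProg. It was found in the same 4 libraries as Slamf6 and Tcf7l2, at no more than 30.0 CPM in any. The pooled level was at least 146-fold higher in TetLowReg and at least 516-fold higher in TetLowProg than in TetHighProg. These limits were 60.8 without TetLowReg replicate 8 and 325 without TetLowProg replicate 9, and 85.9 and 304 without TetHighProg replicate 1. edgeR gave adjusted p-values of 0.233 and 0.193.

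Id3, an inhibitor of E protein transcription factors that marks memory precursors (chromosome 4, 135870808 to 135873066, plus strand), was found in a single library. TetLowProg replicate 9 had 5778 counts (159 CPM) and the other 8 libraries had 0. Too few libraries held it for the low-count filter. With no filter it was tested and edgeR did not call it in any comparison. Id2, its relative of effector cells, was highest in the same library with 28780 counts.

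**Figure D3:**
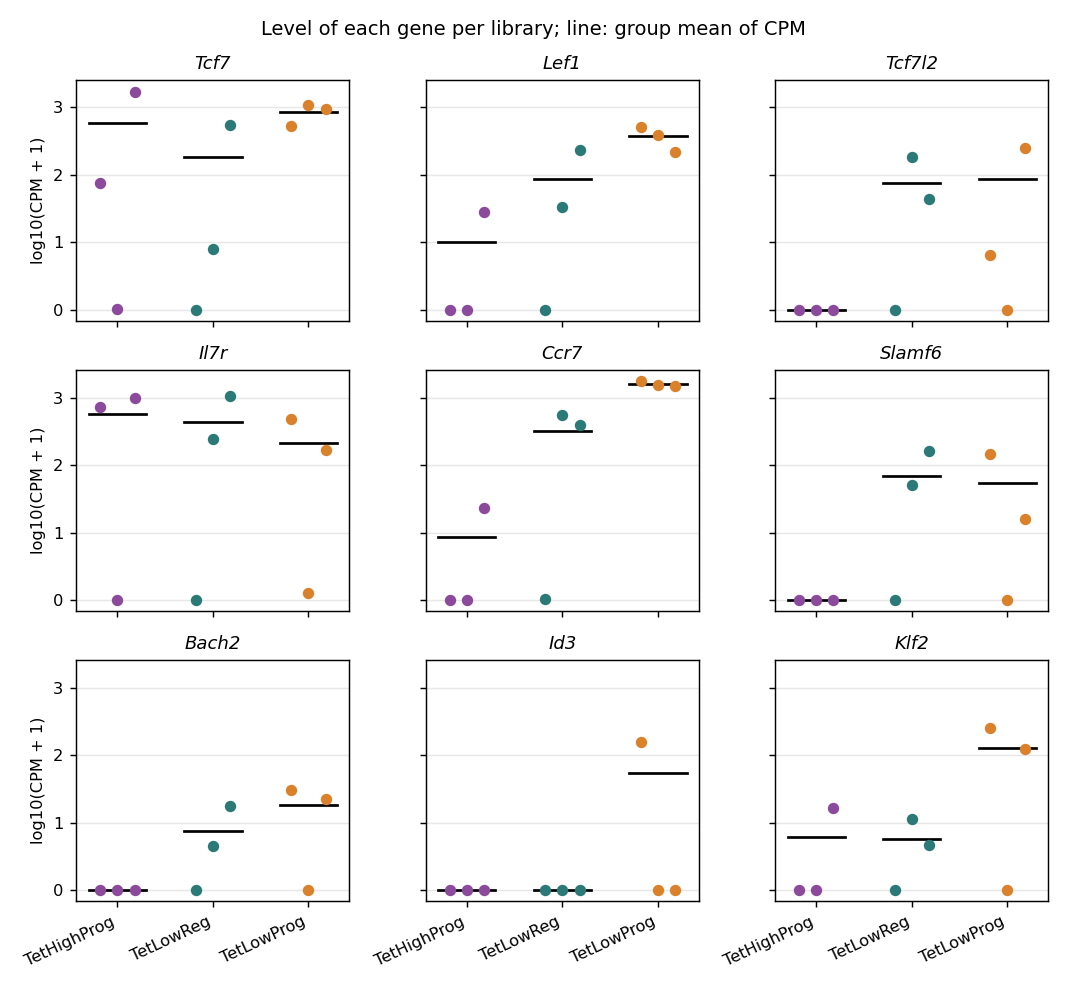
Each panel shows 1 gene as log10(CPM + 1), with a point per library and a line at the log10 of the group mean of CPM plus 1. Ccr7 and Lef1 are the genes whose 3 TetLowProg points lie above all TetHighProg points, and the TetHighProg points of Tcf7l2, Slamf6, Bach2 and Id3 are all at 0.

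Libraries in which few genes were found also held few members. At 10 counts or more, 2, 0 and 5 of the 9 members were found in TetHighProg, 0, 8 and 8 in TetLowReg and 9, 3 and 8 in TetLowProg. The group means were 2.33 ± 2.52, 5.33 ± 4.62 and 6.67 ± 3.21 members, and no test was run on these means. All genes found numbered 1298, 599 and 3181 in TetHighProg, 766, 8004 and 7234 in TetLowReg and 8071, 1148 and 6443 in TetLowProg. The part of this detection in the zeros of Slamf6, Bach2 and Tcf7l2 was not tested. TetLowProg replicate 10, with 1148 genes, held Tcf7, Lef1 and Ccr7 at 27422, 9688 and 38413 counts and had Slamf6, Bach2, Tcf7l2, Id3 and Klf2 at 0. TetHighProg replicate 1, with 1298 genes, held Tcf7 and Il7r alone. Each of these is a single library. TetHighProg replicate 5, with 3181 genes found, lacked the same 4 members as the rest of its group.

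**Figure D4:**
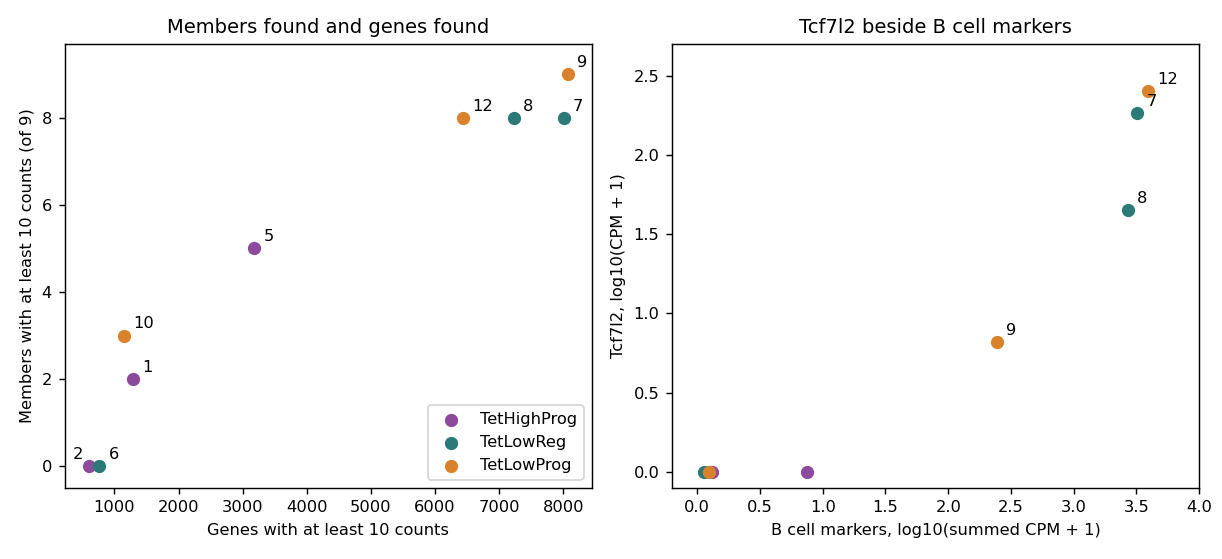
Left, members found against genes found at 10 counts or more, with 1 point per library labelled by replicate. Right, the level of Tcf7l2 against the summed level of the B cell markers, both as log10(CPM + 1). Libraries with few genes hold few members, and Tcf7l2 is highest in TetLowReg 7 and 8 and TetLowProg 12.

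The comparison of TetLowReg with TetHighProg asked how low avidity cells of regressing tumors differ from high avidity cells of progressing ones. Of the 9 members 8 passed the filter, and edgeR called 0 of them (adjusted p below 0.05 with a log2 fold change beyond 2 either way), where it called 0% of 5813 genes. At an unadjusted p under 0.05, Slamf6 and Tcf7l2 were higher, that is 2 of 8, beside 19% of all genes tested. Both are at 0 in TetHighProg and passed the filter through the low avidity libraries, so this count supports nothing about the members. With the filter and fit on these 2 groups alone 5 members were tested, and under the stricter filter 3, with 0 at that level in either. The median log2 fold change was 5.02 over the 8 and 3.52 over all genes tested. Fitted values of genes with a group at 0 depend on the prior count of 2. DESeq2 with default size factors called Slamf6, Bach2 and Tcf7l2 higher (34.1% of the genes with an adjusted p, which Tcf7 and Id3 did not receive), and limma-voom with quality weights called these with Lef1 and Ccr7 (41.3% of genes). Slamf6, Bach2 and Tcf7l2 were at 0 in every TetHighProg library, so their calls support nothing about the members either. No member had TetLowReg libraries that all lay above or all below TetHighProg, while 4.8% of genes lay above and 0.998% below.

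The comparison of TetLowProg with TetHighProg set the avidity groups side by side within progressing tumors. edgeR again called 0 of 8 members and 0% of genes. Bach2, Ccr7 and Tcf7l2 were higher at an unadjusted p under 0.05, which 24.8% of genes were. Of these Bach2 and Tcf7l2 passed the filter through the low avidity libraries in the same way, and Ccr7 alone was at that level among the 5 members tested in the 2 groups alone and the 3 under the stricter filter. The median log2 fold change was 6.42 over the 8 members and 4.27 over all genes. The libraries of Lef1 and Ccr7 did not overlap between the groups, 2 of 9 members, where 6.67% of genes tested were separated in that direction and 0.499% in the other. DESeq2 with default size factors called Slamf6, Bach2, Ccr7 and Tcf7l2 higher (42.7% of genes). limma-voom called 7 of 8, all but Il7r, and 49.6% of all genes. Slamf6, Bach2 and Tcf7l2 among these calls were again at 0 in every TetHighProg library, so their calls support nothing about the members.

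The comparison of TetLowProg with TetLowReg set low avidity cells of progressing tumors against those of regressing tumors. edgeR called 0 of 8 members and 0% of genes, no member had an unadjusted p under 0.05 (0.43% of genes were higher at that level), and DESeq2 with default size factors (1.52% of genes higher) and limma-voom (0%) called no member. Ccr7 had the 1 separation among the members, where 2.77% of genes tested lay higher in the same way and 0.654% lower. The median log2 fold change of the members was 1.06, beside 0.35 over all genes. These 3 comparisons share libraries in pairs, so the values are not independent of each other.

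**Figure D5:**
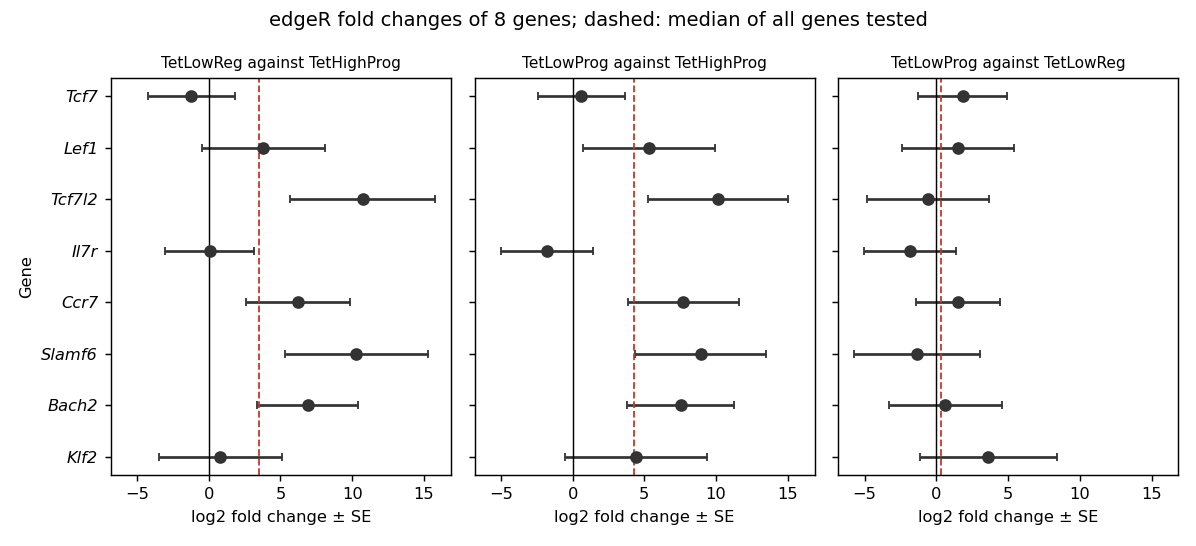
Log2 fold changes with their standard errors for the 8 tested members in the 3 comparisons from edgeR, with the median over all genes tested as a dashed line and 0 as a solid line. Tcf7l2, Slamf6, Bach2 and Ccr7 lie farthest right against TetHighProg, and each bar in the comparison of the low avidity groups crosses 0.

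The partners of the members were read from lists of pathway genes, in which edgeR called none in any comparison. Of 29 genes of the TCF and beta-catenin pathway, 18 were tested. Bcl9, Ctnnb1, Axin2, Ep300 and Apc were higher in TetLowReg than in TetHighProg at an unadjusted p under 0.05, and Bcl9, Dvl1, Tle5, Ctnnb1 and Ep300 in TetLowProg, with none lower. These are 5 of 18 in each comparison, where 19% and 24.8% of all genes tested were higher at that level, and the same shares apply to all list counts below. As with the members, list genes at or near 0 in TetHighProg passed the filter through the low avidity libraries. Such counts therefore support nothing about this list or those below. The median of the list was 4.44 and 5.25 on the log2 scale, beside 3.52 and 4.27 over all genes. Ctnnb1, which encodes beta-catenin, had 0 counts in all TetHighProg libraries, 0, 16 and 867 in TetLowReg and 4434, 0 and 33 in TetLowProg. Gsk3b, whose kinase marks beta-catenin for degradation, had a mean of 3628 ± 3205 CPM in TetHighProg, 4011 ± 2917 in TetLowReg and 2906 ± 3356 in TetLowProg. The other most abundant genes were Csnk1a1, Dvl3 and Myc, found in 8, 6 and 6 of the 9 libraries.

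Of 10 genes of the IL-7 receptor pathway 8 were tested and none had an unadjusted p under 0.05, with list medians of -0.42 and 0.57 against TetHighProg. Il2rg, the common gamma chain that pairs with the product of Il7r, was found in all 9 libraries, at 6643 ± 2424, 3537 ± 2696 and 4031 ± 3106 CPM in TetHighProg, TetLowReg and TetLowProg. Jak1, Pik3r1 and Mcl1 were found in 7, 8 and 7 libraries. The 2 libraries without any member at 10 counts, TetHighProg 2 and TetLowReg 6, had 98806 and 145200 counts of Il2rg, so the chain was present where Il7r was at 0.

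Among 8 trafficking genes tied to KLF2, FOXO1 and CCR7, 5 were tested and none reached an unadjusted p under 0.05. S1pr1, which lets T cells leave lymphoid tissue, had means of 10.3 ± 17.8, 111 ± 112 and 204 ± 177 CPM in TetHighProg, TetLowReg and TetLowProg. As with Klf2, TetLowProg replicate 10 had 0 counts of S1pr1. Foxo1 and Cd69 were found in 6 and 4 libraries.

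Of 9 partners and targets of BACH2, 4 were tested. Nfe2l2 and Jun were higher in TetLowProg than in TetHighProg at an unadjusted p under 0.05, and none passed in the other comparisons. Jun, an AP-1 subunit, had 33947 counts in TetLowProg replicate 9. Junb had 160370 counts in TetLowProg replicate 9 and at most 544 elsewhere, and Mafk had 11622 there, while Jund was found in 7 libraries. Of the 5 partners of ID3, 3 were tested with none at an unadjusted p under 0.05, and Id2, Tcf4, Tcf12 and Tcf3 were found in 3, 5, 5 and 2 libraries. Of 10 genes of the SLAM family and its adaptors, 8 were tested. Cd244a was higher in TetLowReg, and Cd48, Slamf1 and Fyn were higher in TetLowProg, each against TetHighProg and at an unadjusted p under 0.05. Sh2d1a, which encodes the adaptor SAP that binds SLAMF6, ran the other way in its means, with 416 ± 489 CPM in TetHighProg, 24.8 ± 22.8 in TetLowReg and 16.2 ± 15.5 in TetLowProg, a difference within the spread (edgeR adjusted p = 0.651 and 0.502). Ptpn6, Cd84 and Fyn were found in 4, 5 and 5 libraries.

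Of 20 further stem-like and memory genes 17 were tested. Tnfsf8 and Cxcr5 were higher in TetLowReg and Cxcr5 and Bcl6 in TetLowProg, each against TetHighProg at an unadjusted p under 0.05. The list medians were 2.32 and 4.23, below the 3.52 and 4.27 of all genes. Satb1, a chromatin organizer of naive and memory T cells, was found in all 9 libraries, at 736 ± 578, 731 ± 154 and 1060 ± 747 CPM in TetHighProg, TetLowReg and TetLowProg. Cd28, Dapl1 and Gpr183 were found in 8, 9 and 6 libraries, and Dapl1 was therefore also found in the libraries in which no member was found. Of 14 terminal exhaustion genes 7 were tested, with Cd244a and Lag3 higher in TetLowReg and Ctla4 in TetLowProg against TetHighProg at an unadjusted p under 0.05. Medians of this list were 8.17 and 7.64, above the 3.52 and 4.27 of all genes and the 5.02 and 6.42 of the members. Pdcd1, which encodes PD-1, had 0 counts in all 3 TetHighProg libraries, 0, 4 and 1 in TetLowReg and 8322, 0 and 9258 in TetLowProg. Tox had means of 311 ± 177, 12.6 ± 20.5 and 694 ± 1053 CPM, while Nr4a2 and Id2 were found in 8 and 3 libraries.

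The lists of other cell types were read beside the members. The 11 B cell markers present summed to 0.239 to 6.52 CPM in TetHighProg, 0.136 to 3217 in TetLowReg and 0.239 to 3925 in TetLowProg, and the class II genes to 569 to 1497, 0.998 to 48460 and 156 to 61766 CPM. Cd79a and Ms4a1 were at 0 or 1 count outside the 3 libraries named above. Igkc, Ebf1, Cd79b and Ighm led the B cell list, and Cd74, H2-Aa, H2-Eb1 and H2-Ob led class II. The macrophage and dendritic cell markers summed to 78.2 to 3406, 0.227 to 8792 and 0.0398 to 626 CPM, led by Lyz2, Cd209a, Zbtb46 and Cd68, with Csf1r at 9 counts or fewer in every library. CD4 and regulatory T cell markers reached 2.25, 63.9 and 60.0 CPM, NK cell markers 9.78, 28.6 and 206 CPM with Ncr1 at 0 throughout, tumor and stroma markers 387, 36.5 and 92.1 CPM, and erythroid markers 0, 33.4 and 69.6 CPM. Cd4 had 2020 counts in TetLowReg replicate 7 and Foxp3 had 585 in replicate 8. B cells and mature dendritic cells also express Ccr7, and B cells express Bach2. At an unadjusted p under 0.05, 6 and 5 of 10 tested B cell markers, 7 and 7 of 9 class II genes and 3 and 2 of 3 erythroid genes were higher in TetLowReg and TetLowProg than in TetHighProg, beside 19% and 24.8% of all genes. In TetHighProg the erythroid markers were at 0 and the B cell markers summed to at most 6.52 CPM. Genes at or near 0 there passed the filter through the low avidity libraries, so counts at this level support nothing about these lists. Among 4 tested macrophage and dendritic cell markers Itgam was higher and Zbtb46 lower in TetLowProg than in TetHighProg, and Zbtb46 was lower than in TetLowReg. Of the CD4, NK and stroma markers none reached that level, and of 14 CD8 markers Cd2 did, higher in both low avidity groups. CD8 T cell markers, led by Cd8b1, Lck, Trac and Cd2, summed to 4662 to 7613, 1160 to 9985 and 3278 to 7587 CPM.

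Within the members, the levels of Lef1 and Ccr7 were most alike across the 9 libraries (Pearson r = 0.967 on log2(CPM + 1)), followed by Slamf6 and Bach2 (r = 0.918), while Tcf7 and Tcf7l2 had r = 0.189. All correlations rest on the same 9 libraries, which differ in the number of genes found. Among 5812 other genes tested, those most like Tcf7 were Gm7964 (r = 0.939), Acadl (0.916) and Ubr1 (0.909). Those most like Tcf7l2 were A530040E14Rik (0.995), Baz2a (0.994) and Hmgb3 (0.994), and those most like Slamf6 were Gpn1 (0.999), Zfp644 (0.998) and Txndc9 (0.997). The genes most like Slamf6 had at most 3 counts in the 5 libraries where Slamf6 was at 0.

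The counts ignore strand, and 7 of the 9 members share exon sequence with an annotated gene on the opposite strand, so sense and antisense reads cannot be told apart there. For 2 of these partners the tables held a count. A630014C17Rik, opposite Tcf7, was at 0 in every library, and Bach2os, opposite Bach2, had 977 counts in TetLowProg replicate 12 and 0 elsewhere.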

How the data were processed

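RNA of sorted T cells was copied with Smart-seq2, which amplifies cDNA, adds no molecular identifiers and keeps no strand. The authors deposited raw read counts per gene in 9 tables, after alignment to GRCm39 with STAR 2.7.6a. Their notes also name featureCounts, while the tables have the layout of STAR's own output, and the annotation release is not given in the sources used here. Reads at several places are not in these counts. The unstranded column was used, since 50.2% to 50.8% of stranded reads fell on each library's first strand. Each table's 4 summary lines did not enter library totals, and 40.1% to 59.7% of reads fell on genes. Of 32976 genes, 28645 were named from GENCODE M39, which also gave coordinates and exon lengths. Counting limits (3 counts over a group at 0) cover counting error only, since PCR copies count separately.

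Counts were tested with edgeR 4.0.16 (R 4.3.3, quasi-likelihood, TMM, filterByExpr, 9 libraries in 1 model, two-sided, Benjamini-Hochberg over all 5813 genes tested). Calls needed an adjusted p below 0.05 with a log2 fold change beyond 2 either way. Fold changes carry a prior count of 2, and the SE is the absolute fold change divided by the square root of F. Alternatives were DESeq2 1.42.0, limma 3.58.1, other scaling, no filter, a stricter one (all libraries of some group at 10 counts or more), the compared groups alone and leaving out single libraries. Added after seeing the data were DESeq2 on the compared groups alone and leaving out the libraries with few genes or with B cell markers, and pooled ratios with each library left out. The tests were run on simulated data with known answers beforehand, where recovery was required only of edgeR and at a spread far below that of these data. The common dispersion of these data, the edgeR measure of spread, was 8.12. Outcomes at such a spread are not given here, so that run says nothing of power or false calls in these data. Members and lists were chosen with earlier results of these data known. From each list except those of CD4, NK, tumor and stroma, and erythroid markers, the 4 genes with the highest mean CPM and any called gene were named. Defining cell type markers were named as well. A gene that the rule named is not reported here. Other genes were chosen after their values were seen. For Tcf7, Tcf7l2 and Slamf6 the 3 most similar genes were named. No table was a copy of another, since each pair of libraries differed in the counts of 2497 genes or more. Whether any 2 libraries came from the same RNA was not tested. Promoter windows came from RefSeq (GRCm38.p6) and were placed in GRCm39 by exact match. Tables and plots were made in Python 3.11.15 (pandas 2.3.3, matplotlib 3.10.9).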

Additional observations from a re-analysis of the deposited data

How the results depend on the processing

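No paired analysis was possible because the labels number the libraries differently in each group. TetHighProg and TetLowProg were sorted from the same progressing tumors by the study's text, and which libraries share a tumor is not given, so that comparison was fitted without the pairing.

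Genes called were 0 in all 3 comparisons by edgeR. For TetLowReg against TetHighProg, TetLowProg against TetHighProg and TetLowProg against TetLowReg in turn, DESeq2 called 1841, 2370 and 83 genes with default size factors, 1057, 932 and 29 with poscounts, and, added after seeing the data, 1131, 1987 and 11 on the 2 groups alone. limma-voom called 2411, 2901 and 0, and edgeR on the 2 groups alone 2, 1 and 1. Library size in place of TMM called 1 gene for TetLowProg against TetHighProg. Without the 4 libraries with few genes (added after seeing the data) edgeR called 3 in each comparison with TetHighProg. Leaving out each library gave 0 to 4 (4 without TetLowProg replicate 9), 0, and 0 to 2 (1 without TetHighProg replicate 2, 2 without TetLowProg replicate 12), and no member was called in any of these edgeR fits. Members called in the first 2 comparisons, all higher, were 3 and 4 of 7 tested by default DESeq2 (34.1% and 42.7% of genes higher), 2 and 2 of 7 with poscounts (25.8% and 23.2%), 5 and 7 of 8 by limma-voom (41.3% and 49.6%), and 2 of 8 and 3 of 7 by DESeq2 on the 2 groups alone (33.6% and 45.7%). Calls of Slamf6, Bach2 and Tcf7l2 among these rest on a TetHighProg group at 0.

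Changes of sign, none of them called, were as follows. For TetLowReg against TetHighProg, Tcf7 was 3.77 by limma-voom and its range over single libraries left out was -6.32 to 2.46 (without TetHighProg replicate 5). Il7r was -0.29 with no filter, -0.39 with library size, -0.16 and -2.47 by DESeq2 with default and poscounts factors, -0.52 on the 2 groups alone, -0.089 without the 4 libraries and -1.20 to 0.63 over libraries left out (below 0 without TetHighProg replicate 2 or TetLowReg replicate 8). Klf2 was -0.12 with library size, -0.017 with poscounts, -0.25 without the 4 libraries and -1.10 (without TetLowReg replicate 7) to 6.74 over libraries left out. For TetLowProg against TetHighProg, Il7r was 4.41 by limma-voom and Tcf7 was -1.19 without the 4 libraries. For TetLowProg against TetLowReg, Tcf7l2 was 0.20 with library size and -5.69 to 1.88 over libraries left out (above 0 without TetLowReg replicate 7 or TetLowProg replicate 9 or 10), Slamf6 was 0.32 by default DESeq2 and -3.51 to 0.061 (without TetLowReg replicate 8), and Bach2 was -0.16 with poscounts and -0.037 (without TetLowReg replicate 6) to 2.26. Without the 3 libraries with B cell markers (added after seeing the data), which leaves TetLowReg replicate 6 alone in its group, Lef1, Il7r, Ccr7 and Klf2 were -6.88, -12.95, -5.95 and -6.07 for TetLowReg against TetHighProg, and Tcf7l2, Il7r and Slamf6 were 5.10, 11.46 and 9.76 for TetLowProg against TetLowReg. The causes were not tested. Library size in place of TMM moved the median of all genes by -0.47, 0.29 and 0.88, and members found per library moved by less than 1 SD at 1 or 100 counts or thinned to 16405306 counts.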
